A study of Mus musculus with 6 samples.

Results

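The genes described here were 10 genes of bone morphogenetic protein (BMP) signaling, namely the ligands Bmp4 and Bmp7, the secreted modulators Grem1 and Bmper, the pseudoreceptor Bambi, the inhibitory Smads Smad6 and Smad7, and the target genes Id1, Id2 and Id3. They were chosen by their symbols, and all 10 were found among the 30830, 30828 or 32285 gene rows of each of the 6 count tables. Each table was 1 droplet single-cell RNA-seq library, with lung cells or, for the organoids, the FB donors pooled from 3 mice.

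GFP+ lung cells came from Pdgfra-GFP reporter mice, in which GFP is expressed from the Pdgfra locus. The study's methods give male mice of 10 to 14 weeks. In the single-dose experiment the mice received PBS or bleomycin, a drug that injures the lung and causes fibrosis, in 50 ul by oropharyngeal aspiration, and lungs were taken on day 14. For that dose the labels hold 2 values, 2 U/kg where the procedure is described and 4 U/kg in a sample field. In the repetitive experiment the mice received PBS or bleomycin in 3 weekly doses (1 U/kg for the first and second, 0.5 U/kg for the last), and lungs were taken 2 weeks after the last dose. For the organoids, tomato+ type 2 alveolar epithelial cells (AEC2s) from tamoxifen-induced SpcCreER donors were mixed at 10 to 1 with GFP+ fibroblasts (FBs) of PBS-dosed (normal) or bleomycin-dosed (fibrogenic, 2 U/kg) lungs, and were grown in matrigel for 2 weeks. The ratio of 10 to 1 is that of the labels, whereas the study's methods give the FBs in large excess over the AEC2s, and the sources used here do not settle which applied. With 1 library per condition, no difference between conditions could be tested against the spread between mice. All intervals below are 95% intervals for counting error only.

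BMPs are secreted dimers that bind type I and type II receptors on the cell surface, which phosphorylate Smad1, Smad5 and Smad9. These enter the nucleus with Smad4 and switch on genes that include Id1, Id2 and Id3, whose proteins bind basic helix-loop-helix transcription factors and keep them from DNA. The pathway is held in check outside the cell by proteins that bind BMPs, at the membrane by Bambi, a receptor-like protein without a kinase domain, and inside the cell by Smad6 and Smad7. In the lung, BMP signals between mesenchyme and epithelium take part in branching and in the differentiation of AEC2s.

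The libraries held between 7201081 unique molecular identifiers (UMIs, single-dose PBS) and 238618743 UMIs (organoids with fibrogenic FBs). A barcode was kept with at least 2000 UMIs and at most 20% mitochondrial UMIs, which removed 4737 of 10737 barcodes of the repetitive bleomycin library and 76 to 3179 of the other libraries. FB barcodes made up 88.7% to 92.2% of the kept lung barcodes. In those FBs Pdgfra stood at 518 CPM (counts of a gene relative to all counts of the same barcodes, scaled to a common total) after PBS and 288 CPM after bleomycin in the single-dose libraries, and at 591 and 374 CPM in the repetitive experiment. In the organoid FBs it stood at 73.3 and 69.0 CPM. Between 2 and 28 barcodes were shared by the 2 libraries of an experiment. FB subsets were read from marker scores, and a name ending in "-like" stands for a range of that score and not for a proven cell type. In the single-dose experiment 748 of 873 PBS FBs and 354 of 836 bleomycin FBs were alveolar-like (Tcf21, Npnt, Ces1d), while 113 and 179 were matrix-like (Col14a1, Dcn, Ly6a). In the repetitive experiment 4612 of 5354 and 2676 of 5360 FBs were alveolar-like, and 708 and 1697 were matrix-like. After bleomycin there were also injured-like FBs (Sfrp1, Ltbp2, Timp1; 205 and 749 barcodes), MyoFB-like FBs (Cthrc1, Postn, Acta2; 51 and 124) and cycling FBs (27 in each). Barcodes within 0.05 of the next subset's score numbered 8 and 121 in the single-dose libraries and 128 and 768 in the repetitive libraries. The subsets overlapped in their markers, and the injured-like barcodes of the repetitive bleomycin library had medians of 29.4 injured, 25.7 alveolar and 25.5 matrix marker UMIs per 10000.

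Across all FBs, bleomycin was accompanied by more Grem1 and Id2 in both experiments, and by less Bmp4 and Bambi. Of the 10 genes, 2 (Grem1 and Id2) were at least 2-fold higher after bleomycin and 0 were 2-fold lower in the single-dose experiment, where 13.7% of 10739 genes with at least 50 UMIs in both groups together passed 2-fold in either direction (9.4% higher and 4.35% lower). In the repetitive experiment the same 2 genes were higher and 0 lower, against 15.1% of 15154 genes past 2-fold (11.5% higher and 3.55% lower). All 10 genes reached 50 UMIs, although Grem1 did so only through the bleomycin FBs. The median log2 ratio of the 10 genes was 0.11 (all genes 0.08) in the single-dose experiment and -0.03 (all genes 0.13) in the repetitive experiment. With ratios centred on the median of all genes, the single-dose count became 2 higher and 2 lower, the lower ones being Bambi and Bmp4. A level summed over many cells cannot separate more RNA per cell from more cells of a subset that holds it, so levels within subsets are given below.

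**Figure D1:**
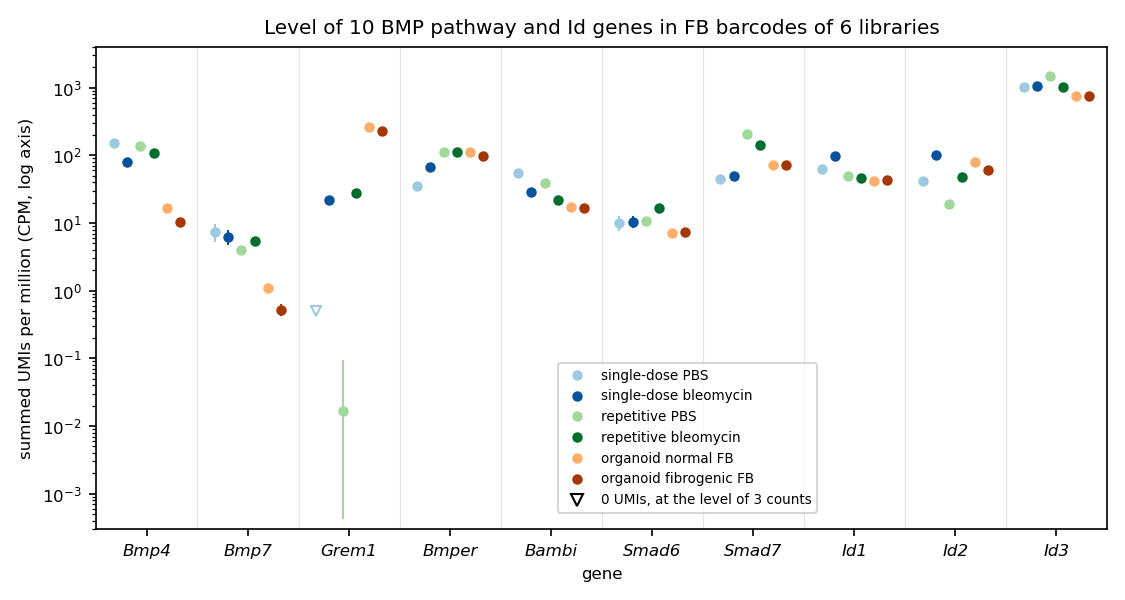
CPM (log axis) of the 10 genes in FB barcodes of the 6 libraries, each point 1 library with its 95% Poisson interval, and the open triangle a library with 0 UMIs set at the level of 3 counts. Grem1 was at 0 and 0.0169 CPM in the PBS FBs and at 21.7 CPM or above in the other 4 libraries, and points are to be compared within a gene and an experiment only.

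Bmp4 and Bmp7 encode BMP ligands. Bmp4 (chromosome 14, positions 46383520 to 46390669 on the minus strand of GRCm38, protein coding) stood at 153 CPM in PBS FBs and 80.6 CPM in bleomycin FBs of the single-dose experiment, a log2 ratio of -0.92 (interval -1.06 to -0.79). The repetitive libraries had 139 and 109 CPM, a log2 ratio of -0.35 (-0.40 to -0.30). Both were lower after bleomycin and neither passed 2-fold. Within alveolar-like FBs the level was 160 CPM after PBS and 130 CPM after bleomycin in the single-dose experiment, and 144 and 141 CPM in the repetitive experiment. Matrix-like FBs had 105 and 46.7 CPM in the single-dose experiment, a log2 ratio of -1.16 (-1.64 to -0.69), and 105 and 83.5 CPM in the repetitive experiment. After bleomycin Bmp4 was higher in alveolar-like than in matrix-, injured- or MyoFB-like barcodes of both libraries. MyoFB-like barcodes held 24.5 CPM in the single-dose library and 42.1 CPM in the repetitive library, which was 5.33-fold and 3.34-fold below the alveolar-like barcodes of the same library. Injured-like barcodes lay between them, at 60.2 and 68.4 CPM. Bmp7 was scarce in all FBs, with 7.29 and 6.20 CPM in the single-dose libraries and 3.94 and 5.52 CPM in the repetitive libraries. In the repetitive PBS FBs it stood at 8.81 CPM in matrix-like and 3.30 CPM in alveolar-like barcodes, against 5.54 CPM (1.51 to 14.2) in T cells. A Bmp7 UMI was found in 5.79% of those matrix-like, 2.82% of the alveolar-like and 4.08% (4 of 98) of T-cell barcodes (median depths 9377, 10730 and 4180 UMIs), and after thinning in 1.55%, 0.781% and 3.06%. After thinning the T-cell share, which rested on few barcodes, was above both, so the 2 levels are not set apart from background. No size is read from the Bmp7 ratio between them or from its count as higher below. The single-dose PBS subsets, at 24.2 and 4.79 CPM, rested on 18 and 25 UMIs.

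Grem1 encodes Gremlin-1, a secreted antagonist that binds BMP2, BMP4 and BMP7. The gene lies on chromosome 2 (113746164 to 113758646, minus strand, GRCm38). In the single-dose experiment 0 UMIs were counted in 6031712 UMIs of PBS FBs, and 231 UMIs (21.7 CPM, 19.0 to 24.7) in bleomycin FBs. Set against the level of 3 counts (0.497 CPM), Grem1 was at least 43.7-fold higher after bleomycin. In the repetitive experiment 1 UMI was counted in the PBS FBs (0.0169 CPM) and 1592 UMIs in the bleomycin FBs (28.1 CPM, 26.7 to 29.5). The log2 ratio was 10.70 with an interval of 8.22 to 16.00, and lay between 4.84 and 10.75 in 8 alternative treatments of the data. Grem1 was thus at or near 0 in both PBS libraries and was counted in both bleomycin libraries.

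Grem1 was unevenly spread over the bleomycin FBs, and the highest levels lay in the MyoFB-like and cycling barcodes. The single-dose library had 88.1 CPM in MyoFB-like, 65.6 CPM in cycling, 21.1 CPM in injured-like and 8.61 CPM in alveolar-like barcodes, and 0 UMIs in matrix-like barcodes, where 3 counts would be 1.84 CPM. The repetitive library had 208 CPM in MyoFB-like, 177 CPM in cycling, 87.3 CPM in injured-like, 8.66 CPM in matrix-like and 1.57 CPM in alveolar-like barcodes. The intervals of MyoFB-like and cycling barcodes overlapped in both libraries, and both lay above those of the other named subsets. FBs of the repetitive library placed in no subset had 143 CPM (112 to 181). The cycling levels rested on 44 and 131 UMIs of 27 barcodes each, and the share of these with a Grem1 UMI was not computed. Cycling barcodes were set apart first, whatever their other marker scores. Against the alveolar-like barcodes of the same library, the MyoFB-like level was 10.2-fold higher (log2 3.36, 2.78 to 3.96) after the single dose. After repetitive doses it was 132-fold higher (log2 7.05, 6.61 to 7.51). In the single-dose library 3.67% of alveolar-like barcodes (0.28% after thinning) held a Grem1 UMI, under the T-cell limit given in the next paragraph. The repetitive alveolar-like level of 1.57 CPM is not set apart from background there. The size of neither fold is read beyond the counts. The injured-like barcodes held 26.4% of the FB UMIs of Grem1 in the single-dose library with 27.2% of all FB UMIs. They held 54.0% in the repetitive library with 17.3% of all FB UMIs. These UMIs came from 17 of 205 (8.29%, after thinning 2.44%) and 65 of 749 (8.68%, after thinning 4.41%) injured-like barcodes, at median depths of 13560 and 11730 UMIs, and the single-dose share lies under the limit of its T cells given next.

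At least 1 Grem1 UMI was found in 16 of 51 MyoFB-like barcodes (31.4%, exact binomial interval 19.1% to 45.9%) of the single-dose library and in 43 of 124 (34.7%, 26.4% to 43.8%) of the repetitive library. T cells, which were taken as cells that lack the gene, had a UMI in 0 of 17 and 2 of 70 barcodes (2.86%), the first of which allows a share of up to 17.6% by the limit of 3 counts (19.5% by the exact interval). Median depth was 17930 and 10920 UMIs in the MyoFB-like barcodes and 4408 and 4790 UMIs in the T cells. After thinning each barcode to 2000 UMIs the shares were 7.84% and 16.9% in MyoFB-like barcodes and 0% and 1.43% in T cells. The single-dose MyoFB-like share of 7.84% lies under the limit of 17.6% that 0 of 17 allows. In the repetitive library the alveolar-like (0.972%) and matrix-like (1.18%) shares before thinning were below the 2.86% of the T cells and are not set apart from background. The matrix-like barcodes held 113 Grem1 UMIs (8.66 CPM, 7.14 to 10.4), and how these were spread over the barcodes was not tested. The 14 Grem1 UMIs of the T cells came from 2 barcodes. T-cell barcodes also held RNA of FB genes. Col1a1 stood at 417.5 and 482.5 CPM in single-dose T cells after PBS and bleomycin, against 862 and 3155 CPM in FBs. In the repetitive experiment it stood at 242 and 1078 CPM in T cells, against 694 and 2783 CPM in FBs. A share under that of the T cells is therefore not shown to be background, for Grem1 or for the other genes.

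**Figure D2:**
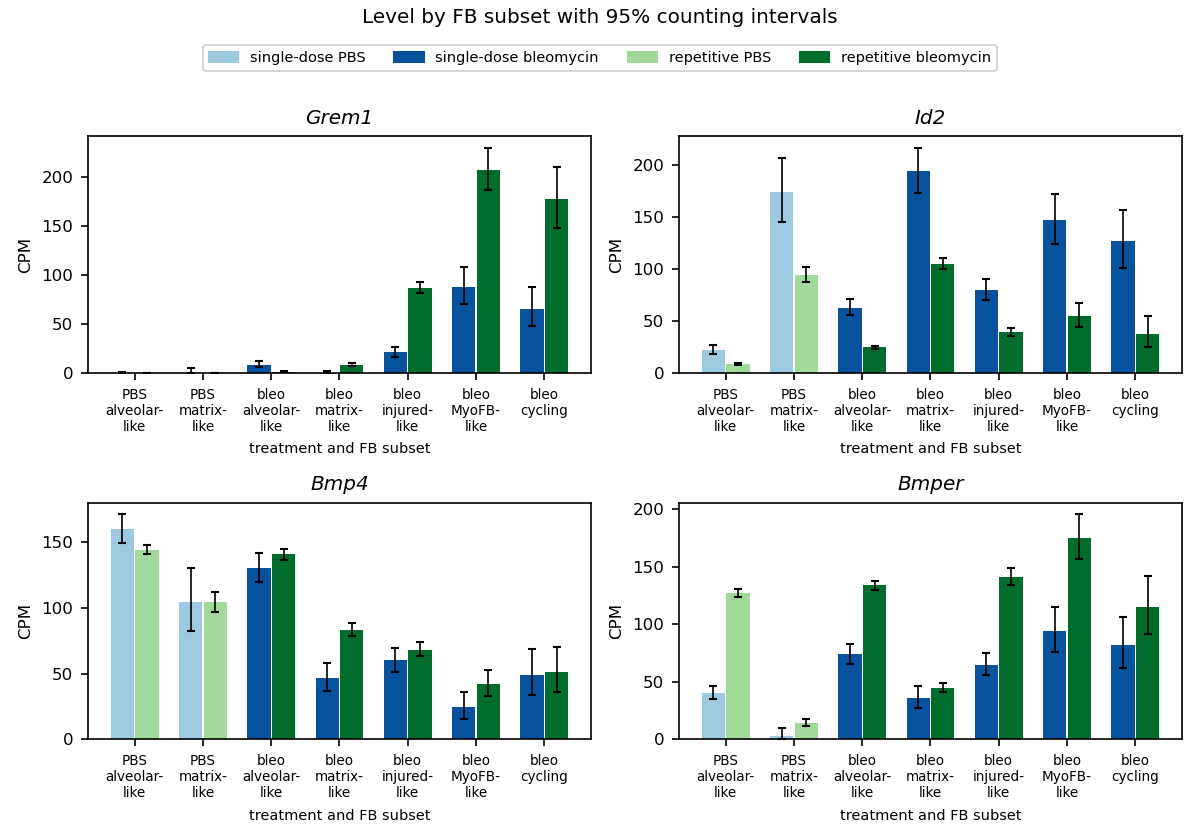
CPM of Grem1, Id2, Bmp4 and Bmper by treatment and FB subset, with bars starting at 0 and 95% Poisson intervals as error bars. After bleomycin Grem1 was higher and Bmp4 lower in MyoFB-like and cycling than in alveolar-like FBs, and Id2 was higher in matrix-like than in alveolar-like FBs in each of the 4 libraries.

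Bmper encodes a secreted protein that binds BMPs and can block or aid their action. The gene lies on chromosome 9 (23223076 to 23485200, plus strand, GRCm38). In PBS lungs it marked the alveolar-like side of the FBs, with 40.2 CPM in alveolar-like and 2.68 CPM (2 UMIs) in matrix-like barcodes of the single-dose library, a log2 ratio of -3.90 (-6.96 to -2.03) for matrix-like over alveolar-like. The repetitive PBS library had 127 and 14.5 CPM, a log2 ratio of -3.13 (-3.43 to -2.85). After bleomycin the matrix-like level was 36.3 CPM in the single-dose experiment (13.5-fold, log2 3.76, 1.84 to 6.84) and 44.8 CPM in the repetitive experiment (3.09-fold, log2 1.63, 1.32 to 1.95). In alveolar-like barcodes it went from 40.2 to 73.9 CPM in the single-dose experiment and from 127 to 134 CPM in the repetitive experiment. The single-dose matrix-like ratio rested on 2 PBS and 59 bleomycin UMIs, so it reached 50 UMIs only through the bleomycin group. Neither alveolar-like ratio passed 2-fold, and the difference between the subsets' ratios was not tested. Matrix-like barcodes after bleomycin also held more MyoFB markers, with a median of 5.56 against 0 UMIs per 10000 after PBS in the single-dose experiment and 1.98 against 0 in the repetitive experiment, and their part in the Bmper level was not tested. A Bmper UMI was found in 1.77% and 7.91% of the matrix-like PBS barcodes of the 2 experiments (median depths 6729 and 9377 UMIs), against 6.25% (1 of 16) and 9.18% (9 of 98) of the PBS T cells (5707 and 4180 UMIs). After thinning the shares were 0.885% and 2.12% against 6.25% and 2.04%. The matrix-like PBS levels are therefore not set apart from background, and the folds over them are given as counted, with no size read from them. After bleomycin the matrix-like shares were 22.9% and 18.3%, against 0 of 17 T cells (which allows a share of up to 17.6%) and 7.14% of 70. After thinning they were 7.82% (4.34% to 12.8%) and 7.66% (6.44% to 9.03%), against 0 of 17 and 2.86% (0.348% to 9.94%) of T cells, and these intervals overlapped. Over all FBs Bmper stood at 35.1 and 66.5 CPM in the single-dose experiment and at 113 and 114 CPM in the repetitive experiment.

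For Grem1, Bmp4 and Bmper the 250 bases before the start of transcription are shown, from RefSeq (GRCm38.p6). These are the 3 genes of secreted proteins counted past 2-fold between subsets in both lung experiments. The counts served only to choose the sequences, and their limits are given with the subset counts below. The regions are chr2:113758649-113758898 (minus strand) for Grem1, chr14:46390670-46390919 (minus strand) for Bmp4 and chr9:23222826-23223075 (plus strand) for Bmper, each 5′ to 3′ on the strand of the gene. Capitals mark GGCGCC, a motif bound by Smad1 and Smad5.
Grem1: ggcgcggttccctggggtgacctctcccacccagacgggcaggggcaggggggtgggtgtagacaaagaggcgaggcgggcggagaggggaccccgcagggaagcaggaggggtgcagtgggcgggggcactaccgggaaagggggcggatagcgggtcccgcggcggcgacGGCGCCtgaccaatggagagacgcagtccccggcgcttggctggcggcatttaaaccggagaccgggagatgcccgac
Bmp4: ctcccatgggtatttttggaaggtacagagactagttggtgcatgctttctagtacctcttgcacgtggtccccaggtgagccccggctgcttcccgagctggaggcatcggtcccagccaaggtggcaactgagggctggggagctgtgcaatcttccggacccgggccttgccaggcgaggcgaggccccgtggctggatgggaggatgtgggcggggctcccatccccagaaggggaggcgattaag
Bmper: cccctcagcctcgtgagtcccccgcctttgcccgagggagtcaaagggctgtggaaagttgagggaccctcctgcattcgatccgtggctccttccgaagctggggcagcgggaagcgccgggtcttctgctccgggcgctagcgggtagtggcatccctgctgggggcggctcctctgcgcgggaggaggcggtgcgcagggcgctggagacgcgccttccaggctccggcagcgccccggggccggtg
In windows of 300 bases, from 250 before to 50 after the start, GGCGCC (which reads the same on both strands) was found in 11.9% of 32851 promoters. CAGACA or TGTCTG, its match on the other strand, was found in 21.0%. A promoter was listed for 6 of the 10 genes. GGCGCC occurred 1 time in Grem1, 78 bases before the start, and 1 time in Id2, 231 bases before its RefSeq start, and was not in the windows of Id3, Smad6, Bmp4 and Bmper. The RefSeq start of Id2 lies within the gene positions given below, which come from GENCODE and begin further upstream. CAGACA was in none of the 6 windows, and no matches overlapped. A match of these letters is a description and not a bound site.

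Bambi, the pseudoreceptor, was lower after bleomycin in both experiments. It stood at 55.2 CPM in PBS and 28.4 CPM in bleomycin FBs of the single-dose experiment, a log2 ratio of -0.96 (-1.19 to -0.73). After repetitive doses the levels were 39.0 and 22.0 CPM, a log2 ratio of -0.83 (-0.93 to -0.73). The ratio passed 2-fold within matrix-like FBs, where 81.9 CPM became 32.6 CPM in the single-dose experiment (log2 -1.33, -1.89 to -0.77) and 51.6 CPM became 22.2 CPM in the repetitive experiment (log2 -1.22, -1.44 to -0.99). Alveolar-like FBs went from 50.5 to 33.3 CPM and from 36.8 to 22.3 CPM. Thus 4 subset comparisons out of 4 gave a lower level after bleomycin, though the subsets of an experiment share its libraries and are not independent. In the single-dose PBS library a Bambi UMI was found in 22.3% of alveolar-like, 35.4% of matrix-like and 25.0% (4 of 16) of T-cell barcodes. After thinning the shares were 8.56%, 18.6% and 0%, where 0 of 16 allows a share of up to 18.75%. These shares do not set the single-dose PBS levels apart from background.

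Over all FBs neither inhibitory Smad passed 2-fold in either experiment. Smad6, which blocks the BMP branch, stood at 9.95 and 10.4 CPM in the single-dose FBs (log2 0.07, -0.40 to 0.55) and at 10.6 and 16.5 CPM in the repetitive FBs (log2 0.64, 0.50 to 0.79). Endothelial barcodes (13 to 123 per library) held more of it than FBs in each library, at 342, 175, 223 and 111 CPM in single-dose PBS, single-dose bleomycin, repetitive PBS and repetitive bleomycin. Smad7, which blocks both the BMP and the TGF-β branch, stood at 44.4 and 49.3 CPM in the single-dose FBs (log2 0.15, -0.06 to 0.37) and at 210 and 145 CPM in the repetitive FBs (log2 -0.54, -0.58 to -0.50). In PBS lungs Smad7 was lower in matrix-like than in alveolar-like FBs, with 14.8 against 49.0 CPM in the single-dose library (log2 -1.73, -2.75 to -0.87) and 77.2 against 228 CPM in the repetitive library (log2 -1.57, -1.69 to -1.44). Levels of Smad7 and of the other genes are compared within an experiment only, since the libraries of the 2 experiments differed in gene annotation and depth.

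Id2 was past 2-fold and higher after bleomycin in all FBs of each experiment. The gene lies on chromosome 12 (25093799 to 25097140, minus strand, GRCm38). Its level was 41.9 CPM in PBS and 103 CPM in bleomycin FBs of the single-dose experiment (2.46-fold, log2 1.30, 1.10 to 1.501). After repetitive doses it was 18.9 and 48.5 CPM (2.56-fold, log2 1.36, 1.26 to 1.46). Id2 was also higher within alveolar-like FBs after bleomycin, from 22.4 to 62.9 CPM (2.81-fold, log2 1.49, 1.17 to 1.82) and from 8.55 to 24.7 CPM (2.89-fold, log2 1.53, 1.36 to 1.70). Matrix-like FBs had more Id2 after PBS and stayed within 2-fold with treatment, at 174.5 and 194 CPM (log2 0.15, -0.14 to 0.46) and at 94.8 and 105 CPM (log2 0.15, 0.02 to 0.29). In PBS lungs the matrix-like level was 7.79-fold above the alveolar-like level in the single-dose library and 11.1-fold above it in the repetitive library. Matrix-like barcodes made up 12.9% of FBs after PBS and 21.4% after bleomycin in the single-dose experiment, and 13.2% and 31.7% in the repetitive experiment. In the bleomycin libraries MyoFB-like FBs also held more Id2 than alveolar-like FBs, at 147 and 55.1 CPM, or 2.33-fold and 2.23-fold more. Ptprc, a leukocyte gene, moved with Id2 in the FB barcodes, from 0.166 to 1.88 CPM and from 0.406 to 2.84 CPM over all FBs, and from 0.191 to 0.957 CPM and from 0.386 to 2.33 CPM in alveolar-like FBs, and its part was not tested. Cells other than FBs held Id2 as well, with 268, 485, 140 and 221 CPM in myeloid barcodes of single-dose PBS, single-dose bleomycin, repetitive PBS and repetitive bleomycin. In the repetitive experiment the MyoFB-like over alveolar-like ratio lay between 0.56 and 1.35 on the log2 scale in 9 alternative treatments of the data and was under 2-fold in 2 of them.

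Over all FBs the ratio of Id1 was above 0 in the single-dose experiment and below 0 in the repetitive experiment, and the difference between the experiments was not tested. Id1 (chromosome 2, 152736251 to 152737410, plus strand) stood at 63.5 and 98.2 CPM in the single-dose FBs (log2 0.63, 0.46 to 0.80) and at 49.6 and 47.0 CPM in the repetitive FBs (log2 -0.08, -0.15 to -0.00). Within alveolar-like FBs it was higher after bleomycin in both, from 62.4 to 151 CPM (2.42-fold, log2 1.27, 1.08 to 1.47) and from 49.2 to 58.2 CPM (log2 0.24, 0.15 to 0.33). Within matrix-like FBs it was lower in both, from 72.5 to 46.1 CPM (log2 -0.65, -1.18 to -0.12) and from 52.5 to 26.1 CPM (log2 -1.01, -1.23 to -0.79). The last ratio was under 2-fold in 5 of 9 alternatives, which gave -1.10 to -0.67. Injured-like FBs of the single-dose library had 58.5 CPM, 2.58-fold below the alveolar-like FBs of that library.

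Id3 (chromosome 4, 136143497 to 136145755, plus strand) had the most UMIs of the 3 Id genes in FBs. It stood at 1032 CPM in PBS and 1075 CPM in bleomycin FBs of the single-dose experiment (log2 0.06, 0.01 to 0.10), and at 1479 and 1034 CPM in the repetitive experiment (log2 -0.52, -0.53 to -0.50). Centred on the median of all genes, the Id3 ratios were -0.025 and -0.64, so that the sign of the single-dose ratio turned with the scaling. In alveolar-like FBs it was higher after the single dose, at 1002 and 1369 CPM (log2 0.45, 0.39 to 0.50), and lower after repetitive doses, at 1505 and 1021 CPM (log2 -0.56, -0.58 to -0.54). In matrix-like FBs it was lower after bleomycin in both experiments, at 1258 and 806 CPM and at 1284 and 879 CPM. None of these Id3 ratios passed 2-fold.

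Genes that respond to tissue dissociation also differed with treatment. Of 10 such genes (Fos, Jun, Egr1, Atf3 and others), 10 were at least 2-fold lower after bleomycin in the single-dose FBs (4.35% of all genes). Their summed level was 10280 CPM after PBS and 3590 CPM after bleomycin. In the repetitive FBs 3 were 2-fold lower and 0 higher (3.55% and 11.5% of all genes), with 12530 and 6836 CPM. Within alveolar-like FBs 10 were lower in the single-dose and 1 in the repetitive experiment (3.29% and 3.1% of all genes). Within matrix-like FBs 9 and 8 were lower (3% and 1.89% of all genes). The part of these 10 genes in the differences of the Id genes, Bambi or Bmp4 was not tested.

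**Figure D3:**
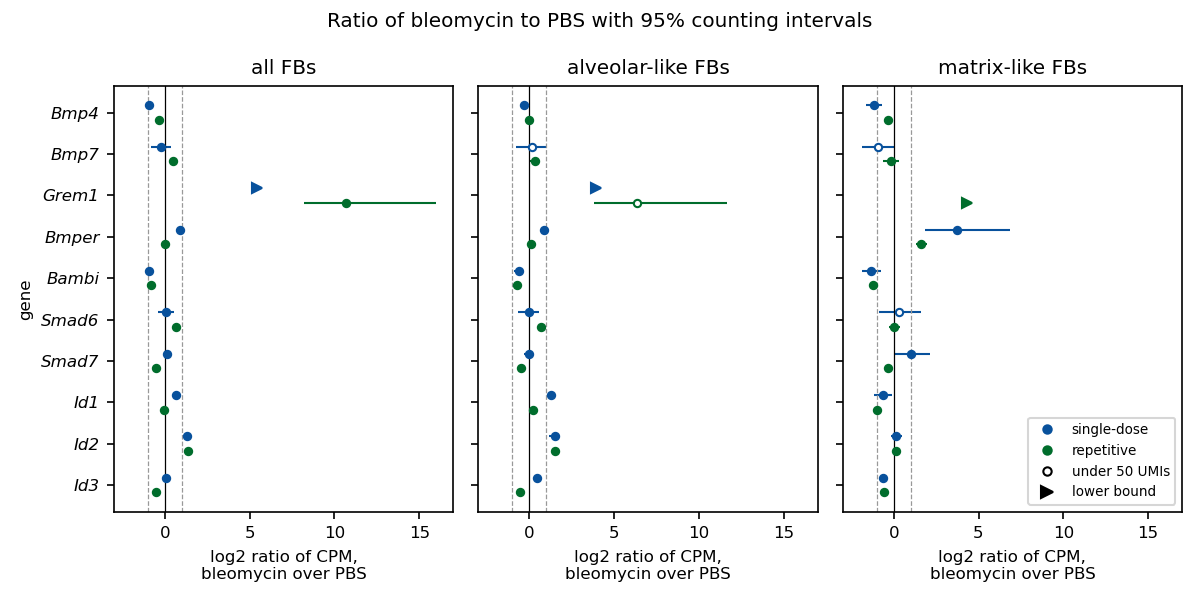
Log2 ratio of CPM, bleomycin over PBS, of the 10 genes in all, alveolar-like and matrix-like FBs, with 95% counting intervals, open points under 50 UMIs, triangles for lower bounds against 0 UMIs and dashed lines at 2-fold. Id2 was past 2-fold in all and alveolar-like FBs of both experiments and within 2-fold in matrix-like FBs. The Bmper ratios of matrix-like FBs stand over PBS levels not set apart from background.

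The counts within subsets were as follows. In alveolar-like FBs 2 of 8 genes with 50 UMIs were 2-fold higher after bleomycin in the single-dose experiment (Id1 and Id2), where 8.9% of all genes passed 2-fold (5.61% higher and 3.29% lower), and 1 of 9 in the repetitive experiment (Id2), where 11.5% did (8.4% higher and 3.1% lower). Of the expression clusters that were mostly alveolar-like, clusters 2 and 3 of the single-dose experiment held 452 and 308 PBS FBs (5 and 9 bleomycin FBs) and cluster 6 held 224 bleomycin FBs (3 PBS FBs), counting all FBs of the cluster. In the repetitive experiment PBS FBs prevailed in clusters 1, 3, 4, 5 and 8 and bleomycin FBs in clusters 7, 10 and 13. The median alveolar marker level of alveolar-like FBs was also lower after bleomycin, at 76.8 against 158 UMIs per 10000 and at 75.9 against 132. In matrix-like FBs 2 of 7 genes were higher (Bmper and Smad7) and 2 lower (Bmp4 and Bambi) in the single-dose experiment (7.4% of all genes past 2-fold, 4.4% higher and 3% lower), and 2 of 10 were higher (Bmper and Grem1) and 2 lower (Id1 and Bambi) in the repetitive experiment (5.33%, 3.45% higher and 1.89% lower). The Smad7 ratio, 14.8 and 30.1 CPM, rested on 11 and 49 UMIs and was under 2-fold in 2 of 9 alternatives. Bmper in the single-dose matrix-like FBs passed the 50-UMI minimum only through the bleomycin group (59 UMIs against 2), over a PBS level not set apart from background. Its count as higher is not read further. Grem1 in the repetitive matrix-like FBs passed the 50-UMI minimum only through the bleomycin group (113 UMIs against 0). Its share of barcodes is the one not set apart from background above, so Grem1 is not read as a member that was higher there.

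Among subsets of 1 library, matrix-like over alveolar-like PBS FBs gave 1 higher (Id2) and 2 lower (Smad7 and Bmper) of 8 genes in the single-dose library (15.3% of all genes past 2-fold, 5.91% higher and 9.41% lower) and 2 higher (Id2 and Bmp7) and 2 lower (Smad7 and Bmper) of 9 in the repetitive library (19.1%, 8.75% higher and 10.3% lower). MyoFB-like over alveolar-like bleomycin FBs gave 2 higher (Grem1 and Id2) and 1 lower (Bmp4) of 8 in the single-dose library (15.5%, 4.7% higher and 10.8% lower), and 3 higher (Grem1, Id2 and Bmp7) and 1 lower (Bmp4) of 10 in the repetitive library (16.9%, 6.08% higher and 10.8% lower). Grem1 reached 50 UMIs only through the MyoFB-like group in both libraries (36 and 90 UMIs, 48 and 370 UMIs), and its count as higher is not read further. Bmp7 in the repetitive library rested on 18 UMIs in MyoFB-like barcodes (10.12 CPM, 5.995 to 15.99). It reached 50 UMIs only through the alveolar-like group (125 UMIs). The MyoFB-like interval of Bmp7 overlapped that of the T cells of that library (3.61 CPM, 0.4372 to 13.04). The count of Bmp7 as higher is therefore not read further. With subsets taken from expression clusters, the MyoFB-like name in the repetitive experiment went to cluster 14, of 11 PBS and 20 bleomycin barcodes. Only 51.6% of these were MyoFB-like by the gate. With those 20 bleomycin barcodes the Bmp4 ratio was -0.35 on the log2 scale in place of -1.74. Injured-like over alveolar-like FBs gave 1 higher (Grem1) and 2 lower (Id1 and Bmp4) of 9 in the single-dose library (5.96%, 3.26% higher and 2.7% lower), and 1 higher (Grem1) and 1 lower (Bmp4) of 10 in the repetitive library (7.26%, 3.68% higher and 3.58% lower). Grem1 again reached 50 UMIs only through the injured-like group (61 and 859 UMIs). Of the genes counted as lower, single-dose Bmp4 in MyoFB-like (25 UMIs) and Smad7 (11 UMIs) and Bmper (2 UMIs) in matrix-like FBs reached 50 UMIs only through the alveolar-like group. The Bmp4 ratios of injured-like FBs were under 2-fold in 1 of 9 alternatives (single-dose) and 2 of 9 (repetitive).

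Other genes of the pathway were counted from fixed lists, and their counts stand beside the shares of all genes given above for all FBs, 9.4% higher and 4.35% lower in the single-dose experiment and 11.5% higher and 3.55% lower in the repetitive experiment. Gdf6 (7 and 60 UMIs, 46 and 276 UMIs), Msx1 (32 and 116 UMIs in the single-dose FBs) and Nog (2 and 60 UMIs in the repetitive FBs) reached 50 UMIs only through the bleomycin FBs, so their counts as higher are not read further. Of 9 further ligands, 4 reached 50 UMIs in the single-dose FBs and 1 was 2-fold higher, Gdf6 (1.16 and 5.64 CPM). Of these ligands 6 reached 50 UMIs in the repetitive FBs and 3 were higher, led again by Gdf6 (0.777 and 4.87 CPM), while Bmp3 was the lowest in both (153 and 81.1 CPM, 227 and 143 CPM) and within 2-fold. Of 11 further secreted antagonists and modulators, 1 was higher and 2 lower of 7 in the single-dose FBs, and 4 higher and 1 lower of 10 in the repetitive FBs. Chrdl1, which encodes a BMP antagonist of the chordin family, was the lowest in both, at 89.4 and 17.3 CPM (log2 -2.37) and at 134 and 42.3 CPM (log2 -1.66). The highest were Bmp1, a protease that cleaves chordin, at 18.9 and 98.0 CPM (log2 2.37) in the single-dose FBs, and the antagonist Nog, at 0.0338 CPM and 1.06 CPM, in the repetitive FBs.

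Receptors, transducers and the intracellular proteins of the pathway were counted in the same way. Of 10 receptors and coreceptors 1 of 9 was 2-fold lower in the single-dose FBs (Acvr2b, 6.96 and 2.63 CPM), where Eng was the highest (34.98 and 69.2 CPM), and 2 of 10 were higher in the repetitive FBs, led by Bmpr1b (2.08 and 7.08 CPM), where Acvr2b was again the lowest (6.84 and 4.25 CPM). Of the 4 transducers (Smad1, Smad4, Smad5, Smad9) 0 of 3 that reached 50 UMIs passed 2-fold in all single-dose FBs and 0 of 4 in all repetitive FBs, and of 5 further intracellular inhibitors 0 of 5 did in either. Smad5 had the highest ratio of the transducers in both, at 25.5 and 41.4 CPM and at 36.9 and 49.3 CPM, and the lowest were Smad4 in the single-dose FBs (31.7 and 38.5 CPM) and Smad9 in the repetitive FBs (7.47 and 3.88 CPM). Of the intracellular inhibitors Tob1 was the lowest in both, at 28.7 and 17.7 CPM and at 34.1 and 17.4 CPM, and the highest were Skil (37.1 and 58.8 CPM) and Smurf1 (29.6 and 38.2 CPM). Of 5 other target genes 1 of 4 was higher in the single-dose FBs (Msx1, 5.30 and 10.9 CPM) and 2 of 4 in the repetitive FBs, led by Id4 (5.02 and 14.8 CPM), and Hey1 had the lowest ratio in both (5.80 and 3.20 CPM, 2.65 and 2.64 CPM).

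In the organoids Grem1 stood at 267 CPM in FBs of the normal culture and at 233 CPM in those of the fibrogenic culture (log2 -0.19, -0.21 to -0.17). A Grem1 UMI was found in 68.7% of 2346 and 59.3% of 3650 organoid FBs, at median depths of 48550 and 37490 UMIs, and after thinning in 26.9% and 24.8%. The share in AEC2-like cells, which should lack it, was 4.80% and 11.1% before and 0.209% and 0.676% after thinning. Thus FBs from PBS-dosed lungs had Grem1 after culture, while the fresh FBs of the PBS lung libraries had 0 or 1 UMI. No library held the organoid FBs before culture. Whether the organoid FBs and the fresh FBs differ by culture, by sort or by library cannot be told apart.

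Between organoid FBs of the 2 cultures most of the 10 genes were within 2-fold. Of the 10 genes 1 was 2-fold lower with fibrogenic FBs (Bmp7, 1.09 and 0.521 CPM) and 0 higher, against 4.52% of 16432 genes past 2-fold (1.75% higher and 2.77% lower). The Bmp7 ratio (log2 -1.07, -1.47 to -0.67) was under 2-fold in 2 of 8 alternatives. Id3 stood at 744 and 748 CPM (log2 0.007, -0.005 to 0.019), Id1 at 42.5 and 43.5 CPM, and Smad7 at 71.1 and 71.6 CPM. Lower values with fibrogenic FBs were found for Id2, at 79.6 and 60.3 CPM (log2 -0.40, -0.44 to -0.36), and Bmp4, at 16.6 and 10.3 CPM (log2 -0.70, -0.79 to -0.60). Sftpc, the surfactant gene that marks AEC2s, stood at 3737 and 2016 CPM in these organoid FB barcodes and at 85230 and 89460 CPM in AEC2-like cells, where Id2 and Bmp4 were also higher than in the FBs. It was lower with fibrogenic FBs, as were Id2 and Bmp4, and its part in their difference was not tested. The other pathway lists gave, among ligands, 1 higher (Gdf6) and 3 lower of 6, and among secreted modulators 1 higher (Tll1) and 1 lower (Chrdl1) of 9. No receptor, transducer, intracellular inhibitor or other target gene of the lists passed 2-fold. In the epithelium of the same cultures, where 2.27% of all genes were higher and 0.818% lower, 1 ligand of 3 (Bmp2, 1.23 and 3.07 CPM) and 1 secreted modulator of 6 (Nbl1, 9.05 and 20.5 CPM) were higher, Bmp2 having reached 50 UMIs only through the fibrogenic culture, and 0 of 9 receptors, 3 transducers and 5 inhibitors passed 2-fold.

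In the organoid epithelium Id2, Bmp4, Bambi, Id3 and Smad7 differed by more than 2-fold between cell groups in both cultures. AEC2-like cells (Sftpc, Lamp3, Abca3; 479 and 296 barcodes) had 458 CPM of Id2 with normal FBs and 393 CPM with fibrogenic FBs. PATS-like cells (Cldn4, Krt19, Sfn; 133 and 212 barcodes), named for the prealveolar type 1 transitional state between AEC2s and type 1 cells, had 17.2 and 27.3 CPM. Id2 was thus 26.6-fold and 14.4-fold lower in PATS-like than in AEC2-like cells. Bmp4 had the same order, with 119 CPM in AEC2-like and 7.49 CPM in PATS-like cells with normal FBs (15.9-fold lower) and 91.3 and 12.6 CPM with fibrogenic FBs (7.26-fold lower). Bambi stood at 19.5 and 3.06 CPM and at 25.6 and 2.69 CPM.

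Id3 and Smad7 had the opposite order. Id3 stood at 6.63 and 15.4 CPM in AEC2-like and at 84.6 and 108 CPM in PATS-like cells, which was 12.8-fold and 7.004-fold higher. Smad7 stood at 34.8 and 39.2 CPM in AEC2-like and at 136 and 108 CPM in PATS-like cells, which was 3.91-fold and 2.74-fold higher. In all, 2 genes were higher and 5 lower of 7 in PATS-like over AEC2-like cells with normal FBs (34% of all genes past 2-fold, 20.5% higher and 13.5% lower), and 2 higher and 4 lower of 8 with fibrogenic FBs (30.5%, 18.5% higher and 12% lower). With normal FBs Bmp4 (44 UMIs in PATS-like cells) and, in both cultures, Bambi (18 and 21 UMIs) and Smad6 (19 and 27 UMIs) reached 50 UMIs only through the AEC2-like cells. The Smad6 ratios among these, 3.23 against 7.28 CPM and 3.46 against 7.40 CPM, were under 2-fold in 1 and 3 of 10 alternatives, and the Id1 ratio with normal FBs, 35.9 against 79.4 CPM, in 1 of 10.

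RNA of FBs was present in the epithelial barcodes. Col1a1, the main collagen gene of FBs, stood at 2862 and 3086 CPM in organoid FBs, 12.9 and 24.0 CPM in AEC2-like and 64.7 and 50.3 CPM in PATS-like cells. Per Col1a1 UMI there were 0.260 and 0.242 Id3 UMIs in FBs, 0.514 and 0.643 in AEC2-like and 1.31 and 2.15 in PATS-like cells. For Smad7 these were 0.0248 and 0.0232 in FBs and 2.10 and 2.14 in PATS-like cells. The part of FB RNA in the Id3 and Smad7 levels of PATS-like cells was not tested. For Grem1 the value was 0.0932 and 0.0756 in FBs and 0.0965 and 0.124 in AEC2-like cells, and Grem1 in AEC2-like cells (1.25 and 2.98 CPM) is not read as expression there.

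**Figure D4:**
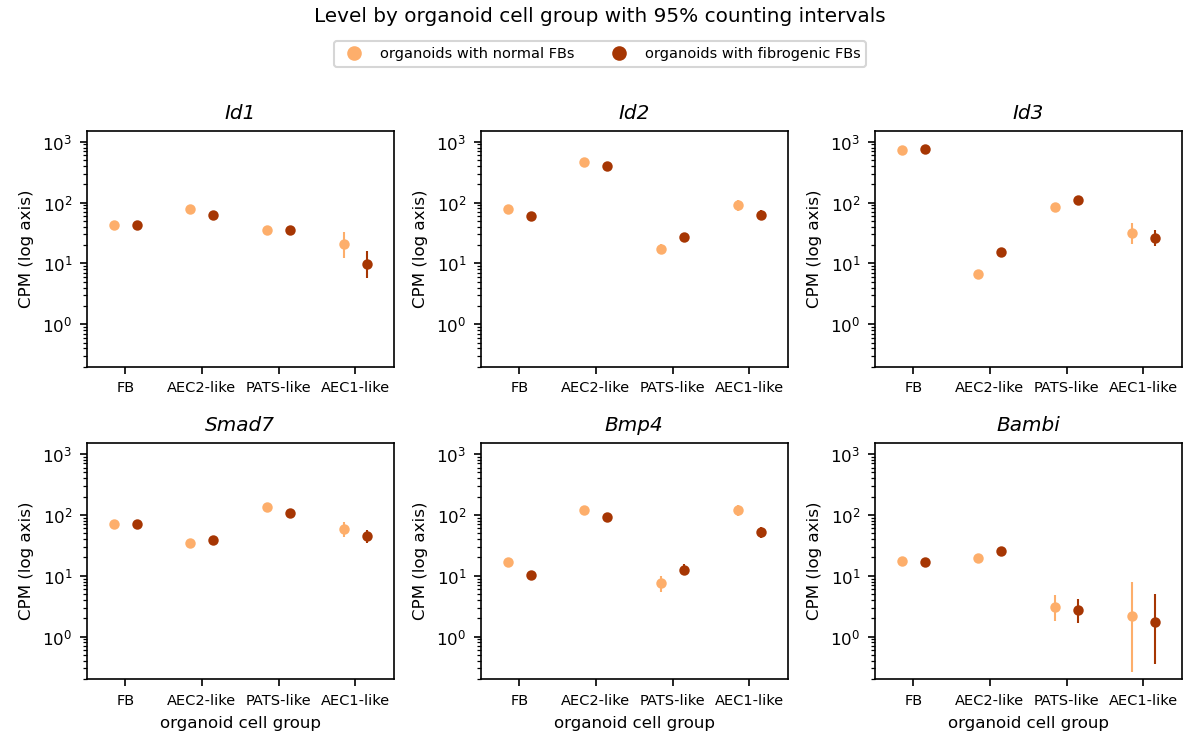
CPM (log axis) of Id1, Id2, Id3, Smad7, Bmp4 and Bambi in 4 organoid cell groups, with 1 point per library and 95% Poisson intervals. Id2, Bmp4 and Bambi were lower and Id3 and Smad7 higher in PATS-like than in AEC2-like cells of both cultures.

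AEC1-like cells (Hopx, Ager, Akap5) were few, with 36 barcodes with normal and 67 with fibrogenic FBs. They also held markers of the other groups, with medians of 75.8 and 67.3 AEC1, 26.2 and 18.2 AEC2 and 24.1 and 34.3 PATS marker UMIs per 10000. Id2 was lower in them than in AEC2-like cells, at 90.5 CPM (5.07-fold) and 63.0 CPM (6.24-fold). Id1 was lower as well, at 20.7 CPM (3.84-fold) and 9.82 CPM (6.34-fold), from 19 and 17 UMIs in AEC1-like cells. Id1 reached the UMI minimum only through the AEC2-like cells, so no size is read from its folds. Bmp4 was at 119 and 51.4 CPM, a log2 ratio of 0.00 (-0.29 to 0.28) and -0.83 (-1.16 to -0.52) over AEC2-like cells. Of 7 genes 1 was higher and 4 lower with normal FBs (24.2% of all genes past 2-fold, 13.7% higher and 10.5% lower). With fibrogenic FBs 0 were higher and 3 lower (22.3%, 11.7% higher and 10.6% lower). The higher one was Id3, at 31.6 CPM (29 UMIs) in AEC1-like and 6.63 CPM in AEC2-like cells with normal FBs. With fibrogenic FBs Id3 stood at 26.0 and 15.4 CPM, within 2-fold. The lower ones were Id1, Id2 and Bambi in both cultures and Smad6 with normal FBs. In AEC1-like cells Smad6 and Bambi rested on 2 UMIs each with normal FBs, and Bambi on 3 UMIs with fibrogenic FBs. Like Id1, Smad6 and Bambi reached the UMI minimum only through the AEC2-like cells. The Smad6 ratio with normal FBs (log2 -1.74, -4.80 to 0.14) was under 2-fold in 1 of 9 alternatives.

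Between the cultures, the whole epithelium (820 and 660 barcodes) had 1 gene 2-fold higher with fibrogenic FBs of 8 genes, Id3, at 22.0 and 49.3 CPM (log2 1.16, 1.04 to 1.30), against 3.08% of all genes past 2-fold (2.27% higher and 0.818% lower). That ratio was under 2-fold in 2 of 8 alternatives, which gave 0.92 to 1.17. PATS-like cells made up 16.2% of the epithelium with normal and 32.1% with fibrogenic FBs. The gate left out 772 and 999 kept barcodes with markers of both FBs and epithelium. Within AEC2-like cells Id3 was 2.33-fold higher (log2 1.22, 0.88 to 1.56) and Grem1 was higher as well, 2 of 8 genes (1.81% of all genes, 0.972% higher and 0.833% lower), while the Col1a1 level was also higher with fibrogenic FBs, and its part was not tested. Grem1 there was under 2-fold in 1 of 10 alternatives. Its level in AEC2-like cells is not read as expression, so its count as higher is not read further. Within PATS-like cells 0 of 5 genes passed 2-fold (1.5% of all genes, 0.871% higher and 0.632% lower). Within AEC1-like cells 1 of 4 did, Bmp4, lower at 51.4 against 119 CPM (3.91% of all genes, 1.63% higher and 2.28% lower), and its log2 ratio of -1.21 became -0.29 with cell types given by the larger marker share. Bmp4 in AEC2-like cells stood at 119 and 91.3 CPM (log2 -0.38, -0.49 to -0.27).

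Over 28 groups of at least 50 barcodes (cell types and subsets of the 6 libraries, which share libraries and depth), the genes whose log2(CPM + 1) profile was most like each member were named as a description. Grem1 was most like Nwd2 (Pearson r = 0.91), Megf10 (0.88) and Shc4 (0.86). Id2 was most like Acsl5 (0.77), Hdc (0.77) and Dpp9 (0.76), and Id3 was most like Lix1l (0.97), Vgll3 (0.97) and Mxra7 (0.97). Bmp4 was most like Gstt1 (0.90), Gsta3 (0.86) and Gpc3 (0.85). Bmper was most like Dnm3os (0.95), Hivep3 (0.94) and Rbm46 (0.94), Bambi like Rnase4 (0.87), Cd302 (0.85) and St6galnac6 (0.84), and Bmp7 like Wnt5b (0.88), Tgfb3 (0.88) and Adamtsl5 (0.85). Smad6 was most like Ephb4 (0.90), Prx (0.88) and Sox7 (0.84), Smad7 like Jmy (0.93), Nbr1 (0.88) and Arap2 (0.87), and Id1 like Dok4 (0.81), Slc9a3r2 (0.80) and Alg14 (0.76).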

How the data were processed

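Transcripts were counted in 6 droplet libraries, 1 per condition, with the lung cells or the FBs of the organoids pooled from 3 mice each. The tables deposited by the authors hold UMI counts, made with Cell Ranger 3.0.1 on mm10 per the labels, without normalization. The members and gene lists were chosen with earlier results of these data known. Barcodes were gated by fixed marker lists. UMIs were summed per library and group and given as CPM with exact Poisson intervals. Ratios have exact conditional binomial intervals, and shares of barcodes exact binomial (Clopper-Pearson) intervals. A gene with at least 50 UMIs in both groups together counted as past 2-fold at a log2 ratio of 1 or more either way, and 0 UMIs were set to 3 counts. No p-value was computed between conditions. Named were all 10 members, the highest and lowest gene of each pathway list in all lung FBs (other comparisons by counts and the genes past 2-fold), and the 3 genes most like each member. Comparisons of injured-like FBs and of AEC2-, PATS- or AEC1-like cells between cultures, and of PATS-like with AEC2-like cells, were added after the data were seen. Alternatives changed the barcode filter, minimum UMIs, ratio scale, centring, weighting of barcodes, very deep barcodes (no doublet caller was run) and gates, the last also by Leiden clusters (igraph 0.11.9, resolution 1). Python 3.11.15 with numpy 2.4.6, scipy 1.17.1, pandas 2.3.3 and scikit-learn 1.9.0 was used. The computations were first tested on simulated data.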

Additional observations from a re-analysis of the deposited data

Results flagged for a closer look

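Some differences had opposite directions in the 2 lung experiments, with counting intervals of both ratios on opposite sides of 0. The difference between the experiments was not tested, since each condition is 1 library. In all FBs the log2 ratio of bleomycin over PBS of Id1 was 0.63 after the single dose and -0.08 after repetitive doses, and that of Id3 was 0.06 and -0.52. Centred on the median of all genes, the Id3 ratios were -0.025 and -0.64, both below 0, so that its opposite direction depended on the scaling. In alveolar-like FBs Id3 had 0.45 and -0.56. In matrix-like FBs Smad7 had 1.03 and -0.33, the first from 11 and 49 UMIs. For matrix-like over alveolar-like FBs of the PBS libraries, Id3 had 0.33 and -0.23.

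Barcodes removed by the filter on UMIs and mitochondrial share enter no comparison except the alternative without that filter. Only members whose counting interval in them lay above that of the control library's removed barcodes were flagged. In the repetitive bleomycin library these were Id2 (71.1 CPM), Smad7 (105.7 CPM) and Grem1 (13.5 CPM), against 20.4, 53.7 and 0 CPM after PBS. In the organoids with fibrogenic FBs they were Id1 (35.8 CPM), Id3 (343.6 CPM), Grem1 (193.6 CPM) and Bmper (48.5 CPM), against 21.9, 198, 124 and 23.8 CPM with normal FBs. Intervals lay below those of the control for Id3 (828 against 1311 CPM) and Id1 (41.3 against 74.1 CPM) in the repetitive bleomycin library. The same held for Bmp4 in the organoids with fibrogenic FBs (12.01 against 23.35 CPM).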

How the results depend on the processing

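Of 189 recomputed counts of members past 2-fold, 170 were within 1.5 times the reported count and 19 moved. Of 1538 recomputed log2 ratios of members, 1493 stayed on the same side of 2-fold and 61 had the opposite sign. None of those 61 was past 2-fold as reported. Of the 549 that recomputed a ratio past 2-fold, 524 stayed past it in the same direction. For the moved counts the cause was not tested. With ratios centred on the median gene, the single-dose FB count was 4 (reported 2). For alveolar-like repetitive FBs (reported 1) it was 2 without a barcode filter, 2 with genes of at least 10 UMIs and 2 with Leiden subsets. For MyoFB-like over alveolar-like single-dose FBs (reported 3) it was 5 with Leiden subsets. For organoid FBs (reported 1) it was 0 with 1 CPM added and 0 without the deepest 5% of barcodes. For organoid epithelium (reported 1) it was 2 without a barcode filter, 2 with at least 4000 UMIs per barcode, 0 with mean CPM of single barcodes and 2 with cell type by the larger marker share, an alternative chosen after seeing the data. That alternative gave 5 for AEC1-like over AEC2-like cells with fibrogenic FBs (reported 3).

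For the comparisons added after seeing the data, injured-like over alveolar-like repetitive FBs (reported 2) gave 1 with mean CPM and 4 with Leiden subsets. AEC2-like cells between cultures (reported 2) gave 1 with 1 CPM added. PATS-like cells (reported 0) gave 2 with genes of at least 10 UMIs. AEC1-like cells (reported 1) gave 2 with mean CPM, 3 with genes of at least 10 UMIs and 0 with the larger share. No paired analysis was possible because each condition is 1 library and the labels carry no shared replicate numbers, and for the same reason no replicate could be left out. Depth limits Grem1 in the single-dose PBS FBs to a level of 0.497 CPM by the limit of 3 counts (0.612 CPM by the exact Poisson interval), and the error between mice is unknown.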
